A study of Mus musculus with 56 samples.

Results

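The genes described here are 10 members of the DNA replication and proliferation machinery, namely the 6 subunits of the MCM helicase (Mcm2, Mcm3, Mcm4, Mcm5, Mcm6 and Mcm7), the helicase cofactor Cdc45, the sliding clamp Pcna, the proliferation marker Mki67 and the topoisomerase Top2a. They were chosen by gene symbol from the 22864 genes listed for the mouse heart, and all 10 passed the filter on low values. The question was whether genes of cycling cells showed a daily rhythm in the heart, and whether that rhythm or their level differed when food was given in the light or in the dark.

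Female C57BL/6J mice aged 9 weeks were kept in a cycle of 12 h light and 12 h dark with normal chow. After 7 days of free access to food food was restricted for 7 days to the daytime (daytime-restricted feeding, DRF) or, in the reference, to the night (nighttime-restricted feeding, NRF), and the labels name no altered gene or drug. Hearts were taken every 4 h from zeitgeber time (ZT, hours after lights on) 0 to ZT24, with 4 libraries at each of 7 ZTs in each regimen, so that 14 groups held 56 libraries of polyA RNA. Each ZT was sampled from its own libraries, and ZT24 is the clock time of ZT0 at the end of the cycle. Nothing in the labels states whether each library is a separate animal, and the p-values measure the spread between these libraries. Levels are given as TPM, a measure of transcript abundance in which reads per base of exon are scaled to a fixed sum per library. Rhythms and differences were tested on log2(TPM + 0.1), with p-values adjusted over the 20188 genes tested.

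The MCM subunits form a ring that is loaded onto origins of replication in G1 and unwinds DNA in S phase once Cdc45 and the GINS proteins have joined it. Pcna encircles DNA and tethers the polymerases, Top2a untangles sister chromatids, and Ki-67, the product of Mki67, coats mitotic chromosomes and is absent from resting cells. Cardiomyocytes of the adult heart seldom divide, and endothelial cells, fibroblasts and leukocytes make up most of its cycling cells. The libraries were made from heart tissue, so fewer cycling cells and less RNA per cycling cell cannot be told apart.

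The reads recovered on the listed genes, which are not all reads sequenced, came to 29.5 to 53.1 M per library, with a median of 37.5 M. The heart label was checked on 8 cardiomyocyte markers, such as Myh6 and Tnnt2, whose summed level was 28323 to 38122 TPM under NRF and 25344 to 33475 TPM under DRF. Library NRF ZT4 replicate 4 stood apart in the genes of interest, with the highest level of all 56 libraries in 9 of the 10, and DRF ZT12 replicate 4 had the next highest levels of Mki67 and Top2a. The counts of these 10 genes past each test were also taken without both libraries.

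The 10 genes spanned a wide range of levels. Pcna, on chromosome 2 at 132249162-132253314 (mm10, minus strand), was the most abundant, with 42.1 ± 5.77 TPM (SD, n = 56 libraries) and 1260 to 2350 reads per library. Of the helicase subunits, Mcm6 (chromosome 1, 128331590-128359664, minus strand) had 8.19 ± 2.28 TPM and Mcm4 (chromosome 16, 15623897-15637400, minus strand) 8.06 ± 1.70 TPM. Mcm7 (chromosome 5, 138164583-138172422, minus strand) had 7.55 ± 1.57 TPM and Mcm3 (chromosome 1, 20802968-20820312, minus strand) 6.56 ± 2.23 TPM. These 4 subunits lay within 1 SD of each other, although all 6 enter the helicase in equal copies. Lower levels were found for Mcm5 (chromosome 8, 75109569-75128439, plus strand), with 4.0 ± 1.82 TPM, and Mcm2 (chromosome 6, 88883474-88898780, minus strand), with 3.38 ± 1.05 TPM. Mki67 (chromosome 7, 135689784-135716361, minus strand) followed with 2.49 ± 1.81 TPM, Top2a (chromosome 11, 98992943-99024189, minus strand) with 2.06 ± 1.60 TPM and Cdc45 (chromosome 16, 18780447-18811987, minus strand) with 1.96 ± 0.462 TPM. Each of these 5 genes overlapped its neighbour in the order within 1 SD. Cdc45, with 75 to 199 reads per library, was the gene with the fewest reads.

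**Figure D1:**
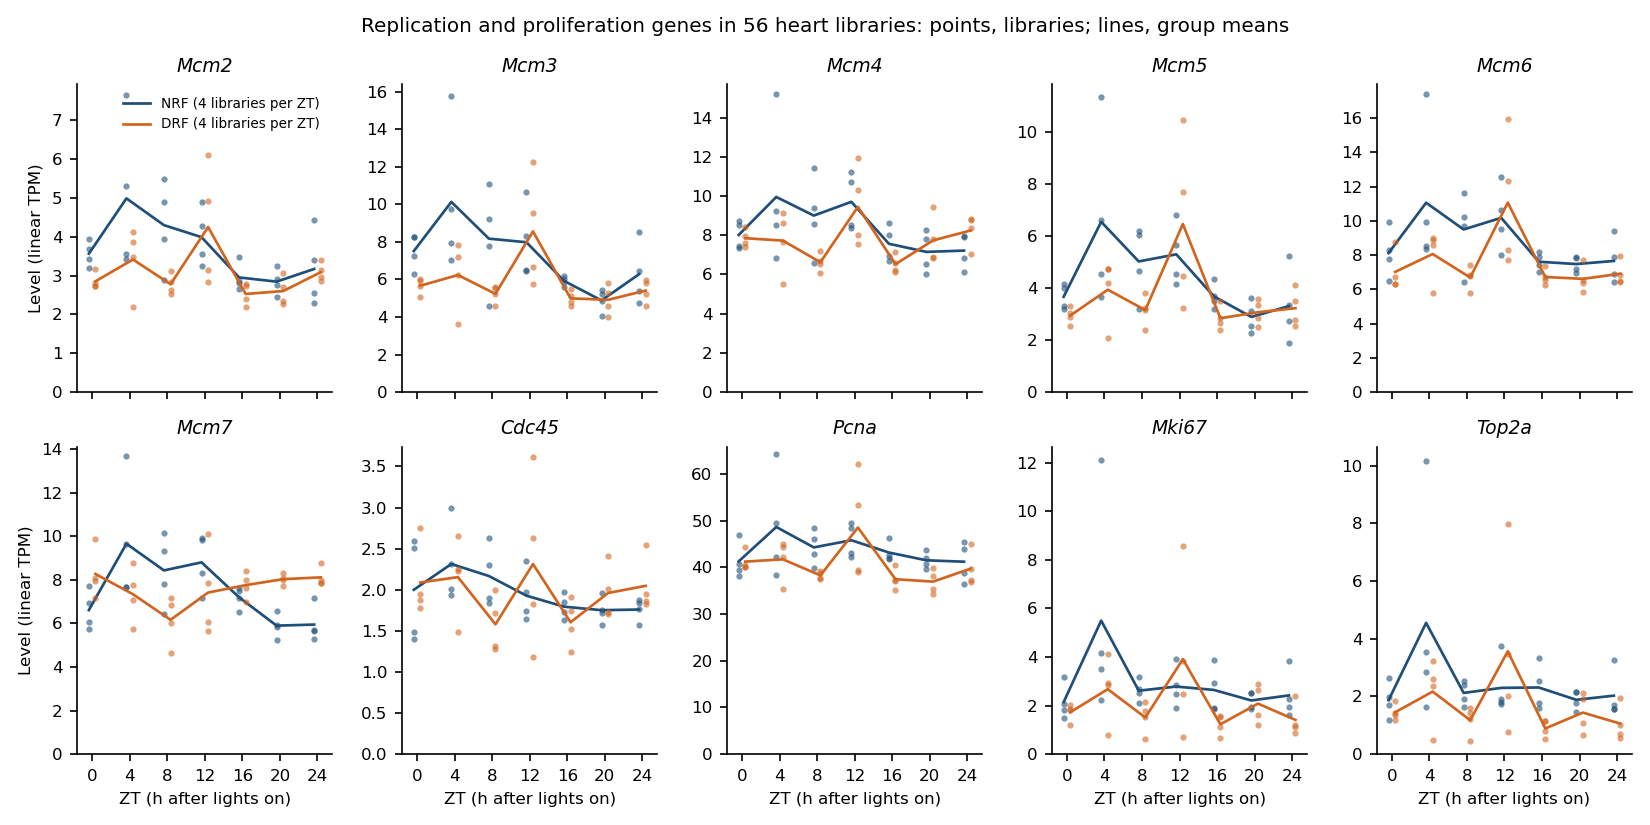
Level of each gene (linear TPM, vertical axis) against ZT in hours (horizontal axis), with points for the 56 libraries and lines for the means of 4 libraries under NRF and DRF. The group means of Mcm7 are highest at ZT4 to ZT12 under NRF and at ZT0, ZT20 and ZT24 under DRF, while Mki67 and Top2a are led by NRF ZT4 replicate 4 (12.1 and 10.2 TPM) and DRF ZT12 replicate 4 (8.58 and 7.97 TPM).

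Because the members moved together between libraries, their promoters were searched for letters of shared control elements. RefSeq (GRCm38.p6) held a window from 250 bases before to 50 bases after the start for 9 of the 10 genes, all but Mcm4. The E2F letters TTCCCGC or TTGGCGC, on either strand, were found in the windows of 5 of these genes (Mcm3, Mcm5, Mcm6, Mcm7 and Mki67), against 6.81% of the 32851 windows of all genes. The CHR letters TTTGAA or TTCGAA, of the element that holds late cell-cycle genes silent in resting cells, were found in 5 genes (Mcm2, Mcm7, Cdc45, Mki67 and Top2a), against 19.2% of windows. The letters CCAAT were found in all 9, against 37.4% of windows, and in Mcm7 the E2F letters at base 21 after the start overlapped them. The clock elements CACGTG (E-box) and TTATGTAA or TTACATAA (D-box) were found in none of the 9, against 7.15% and 0.938% of windows. A gene was counted when any of its windows matched, and Mcm7 had 2 windows, while the shares given beside them are per window. A match is a run of letters and not a measured site. The stretches below show a helicase gene with E2F but no CHR letters, the 2 genes that differed most in mean level, and the part of the Mcm7 promoter that holds both kinds of letters, since Mcm7 was the gene with a different rhythm between the regimens. Capitals mark the E2F and CHR letters, and each stretch reads 5′ to 3′ on the strand of the gene. The first 3 end 1 base before the start, at chr1:128359706-128359955 for Mcm6, chr7:135716380-135716629 for Mki67 and chr11:99024190-99024439 for Top2a. The Mcm7 stretch covers 180 to 151 bases before the RefSeq start, at chr5:138172034-138172063, and lies within the first bases of the neighbour Ap4m1 on the other strand.
Mcm6: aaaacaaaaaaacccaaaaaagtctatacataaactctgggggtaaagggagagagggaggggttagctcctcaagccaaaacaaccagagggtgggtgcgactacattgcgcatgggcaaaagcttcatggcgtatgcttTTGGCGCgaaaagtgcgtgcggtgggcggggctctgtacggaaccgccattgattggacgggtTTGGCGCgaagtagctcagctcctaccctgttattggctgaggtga
Mki67: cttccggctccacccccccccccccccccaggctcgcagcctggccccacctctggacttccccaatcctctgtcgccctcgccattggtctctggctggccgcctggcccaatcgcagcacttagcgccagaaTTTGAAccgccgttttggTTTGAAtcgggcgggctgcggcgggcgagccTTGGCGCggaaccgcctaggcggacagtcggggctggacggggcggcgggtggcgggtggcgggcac
Top2a: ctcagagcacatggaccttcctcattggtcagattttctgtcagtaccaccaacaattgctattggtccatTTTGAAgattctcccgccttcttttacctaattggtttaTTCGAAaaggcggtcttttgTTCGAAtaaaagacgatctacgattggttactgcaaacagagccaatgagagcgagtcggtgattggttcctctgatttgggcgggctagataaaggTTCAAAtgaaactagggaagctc
Mcm7: cattaatTTCGAAccGCGGGAAacagggtg

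Under NRF, 5 of the 10 genes were rhythmic with a period of 24 h, all of them helicase subunits, against 26.9% of all genes tested. Mcm2, Mcm3, Mcm5, Mcm6 and Mcm7 peaked between ZT6.57 and ZT8.54, in the fasted light phase, with peak-to-trough folds of 1.41 (Mcm6) to 1.94 (Mcm5). Mcm4 peaked at ZT8.10 with a fold of 1.36 but did not pass the test (adjusted p = 0.0534). Neither Cdc45 (adjusted p = 0.122), Pcna (0.262), Mki67 (0.287) nor Top2a (0.463) passed, though their fitted peaks, from ZT6.51 to ZT8.53, lay in the same part of the day. The amplitude is the distance from the mean of the fitted curve to its peak on the log2 scale.

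Mcm5 had the largest fitted amplitude of the 10 genes under NRF, 0.48 ± 0.11 (SE), with a peak at ZT7.97 ± 0.86 h (limma, adjusted p = 0.00731). Its levels were 3.64, 6.62, 4.54 and 11.3 TPM at ZT4 and 4.53, 6.81, 5.66 and 4.16 TPM at ZT12. They were 3.62, 2.53, 2.28 and 3.11 TPM at ZT20. All 4 libraries at ZT20 lay below all 4 at ZT4 and at ZT12. At ZT8, close to the fitted peak, the levels ran from 3.19 to 6.17 TPM, and the lowest library overlapped those of ZT20. Mcm3, with an amplitude of 0.40 ± 0.10 and a peak at ZT6.57 ± 0.83 h (adjusted p = 0.00913), had 7.05, 9.77, 7.93 and 15.8 TPM at ZT4 and 5.2, 4.84, 4.06 and 5.43 TPM at ZT20. These groups did not overlap either, but at ZT8 one library, with 4.59 TPM, was as low as those of ZT20 while the others had 9.21, 7.78 and 11.1 TPM. Mcm2 had an amplitude of 0.36 ± 0.09 and a peak at ZT6.80 ± 0.83 h (adjusted p = 0.00885). Its 4 libraries at ZT4 (3.43, 5.31, 3.57 and 7.65 TPM) lay above those at ZT20 (2.77, 2.46, 2.90 and 3.25 TPM). The libraries at ZT8 had 2.89, 4.89, 3.94 and 5.48 TPM, and the lowest of them overlapped ZT20. Mcm6, with an amplitude of 0.25 ± 0.08 and a peak at ZT7.72 ± 1.08 h, was the weakest call (adjusted p = 0.0415).

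The NRF count depended on which libraries were used. Without both libraries that stood apart it was 6, with Mcm4 added. Leaving out 1 library at a time gave 4 to 6, and the adjusted p of Mcm6 reached 0.0848 without NRF ZT8 replicate 4. Leaving out all libraries of replicate number 2 gave 0, of number 4 gave 1 (Mcm7) and of number 3 gave 3 (Mcm2, Mcm5 and Mcm7), and leaving out ZT20, where the levels were lowest, gave 1 (Mcm7). The fitted peaks of the 5 genes stayed between ZT6.01 and ZT9.84 under each of 22 alternatives.

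Some markers of cells other than cardiomyocytes were rhythmic under NRF as well. They were 4 of 7 pericyte and smooth muscle, 3 of 8 fibroblast, 3 of 9 endothelial and 1 of 9 macrophage markers. Also called were 1 of 5 neutrophil markers (Retnlg, ZT4.64) and 1 of 6 T cell markers (Trac, ZT4.73). Of the cardiomyocyte markers 1 of 8 passed, Pln, with a peak at ZT8.86 (adjusted p = 0.000364). The share over all genes tested was 26.9%. None of the tested B cell, thymocyte, erythroid, adipocyte or mesothelial markers passed. The pericyte markers Pdgfrb (adjusted p = 0.0164) and Cspg4 (0.0267) had fitted peaks at ZT7.74 and ZT8.52, the smooth muscle marker Myh11 at ZT9.09 (0.00885) and the collagen genes Col3a1 (5.15e-05) and Col1a1 (8.69e-05) at ZT5.54 and ZT6.22. The other rhythmic markers of endothelium, smooth muscle, fibroblasts and macrophages peaked at ZT1.14 (Cldn5), ZT2.33 (Kdr), ZT3.48 (Acta2), ZT15.0 (Dcn), ZT15.2 (Flt1) and ZT15.3 (Cd163). Under DRF, where 0 of the 10 genes passed, 7 of 9 macrophage, 5 of 9 endothelial, 4 of 8 fibroblast, 3 of 7 pericyte and smooth muscle, 1 of 6 T cell and 0 of 8 cardiomyocyte markers were rhythmic, against 21.8% of all genes tested, with Col3a1 at ZT5.65. These marker counts moved with the scaling and the libraries used. After median-of-ratios rescaling the NRF counts were 7 of 8 fibroblast, 5 of 9 endothelial, 3 of 9 macrophage and 2 of 8 cardiomyocyte markers. Of all genes, 33.9% were then rhythmic under NRF. Without both libraries that stood apart, 3 of 9 macrophage markers were rhythmic under DRF, against 22.4% of all genes. The part of these cell types in the rhythm of the helicase subunits was not tested.

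Under DRF, 0 of the 10 genes were rhythmic, against 21.8% of all genes tested, and 1 (Mcm7) had an unadjusted p under 0.05, against 34.9% of all genes. Mcm7 narrowly missed the threshold, with an amplitude of 0.18 ± 0.06, a peak at ZT20.6 ± 1.16 h and an adjusted p of 0.0510, and it passed in fits that rescaled the libraries by median of ratios (adjusted p = 0.00707), in limma with voom weights on the reads, and without both libraries that stood apart (adjusted p = 0.00594). It also passed when any 1 of 5 DRF libraries was left out (ZT0 replicate 4, ZT4 replicate 1, ZT4 replicate 2, ZT12 replicate 2 or ZT12 replicate 4), each of which gave a count of 1. For the other 9 genes the DRF amplitudes were 0.02 (Mcm4) to 0.27 (Top2a), and their adjusted p-values were 0.225 (Mcm5) to 0.970 (Mcm4). Without ZT8 the DRF count was 3 (Mcm3, Mcm5 and Mcm6) and without ZT12 it was 2 (Mcm4 and Mcm7).

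**Figure D2:**
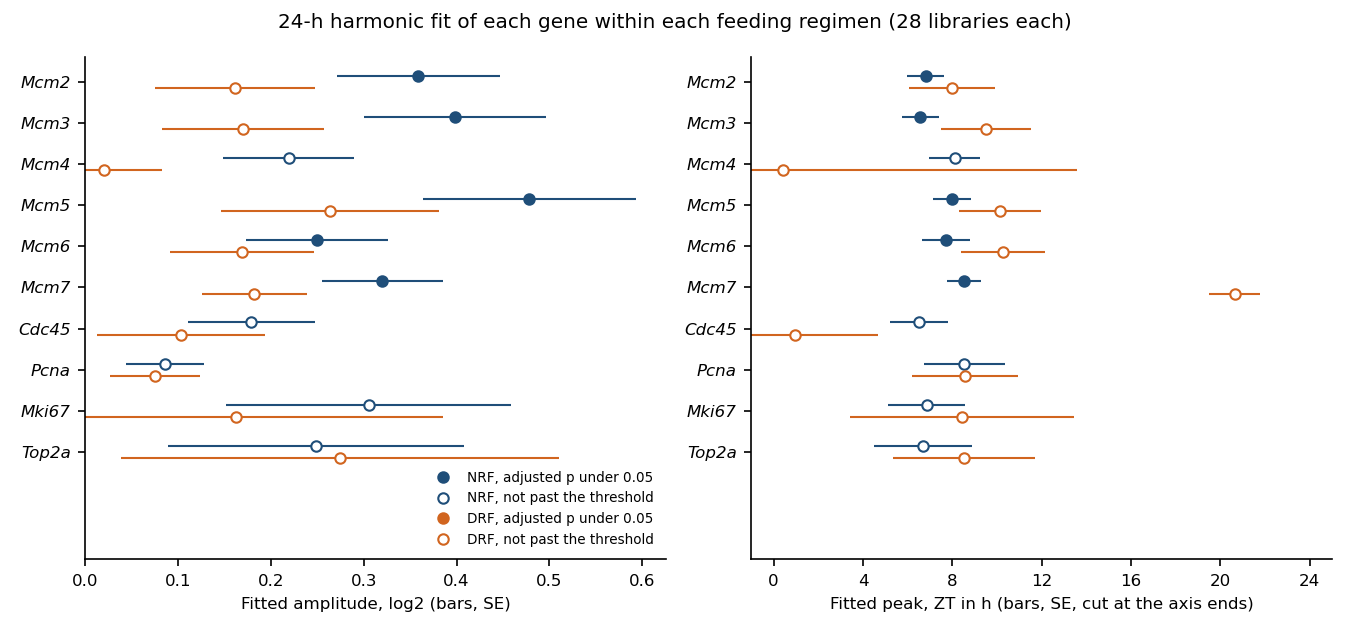
Fitted amplitude (log2, left) and fitted peak (ZT in hours, right) of each gene under NRF and DRF, 28 libraries each, with bars for SE and filled points for an adjusted p under 0.05. Mcm7 has the smallest SE of the 10 peaks in both regimens, at ZT8.54 ± 0.76 h and ZT20.6 ± 1.16 h, while the peak of Mcm4 under DRF has an SE of 13.2 h.

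Mcm7 was the 1 gene of the 10 whose rhythm differed between the regimens, against 18.6% of all genes tested. Its peak moved from ZT8.54 under NRF to ZT20.6 under DRF, a difference of 11.9 ± 1.38 h (limma interaction of regimen with the harmonic, adjusted p = 0.0001). Counted from the start of the phase in which food was given, lights off for NRF and lights on for DRF, the peaks fell at 20.5 h and 20.6 h. The exact hours of feeding are not in the labels.

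The levels of Mcm7 are given here for the single libraries. Under NRF they were 7.68, 9.63, 7.65 and 13.7 TPM at ZT4, 6.42, 9.32, 7.83 and 10.2 TPM at ZT8 and 8.31, 9.91, 9.84 and 7.15 TPM at ZT12. Under DRF they were 8.79, 7.77, 7.08 and 5.73 TPM at ZT4, 7.16, 6.83, 4.65 and 6.03 TPM at ZT8 and 6.07, 7.85, 5.66 and 10.1 TPM at ZT12. At each of these ZTs the 2 regimens overlapped. At ZT20 the NRF libraries had 5.85, 5.22, 6.58 and 5.95 TPM and the DRF libraries 8.09, 7.71, 8.34 and 8.0 TPM. At ZT24 the NRF libraries had 5.69, 5.65, 7.15 and 5.30 TPM and the DRF libraries 8.78, 7.85, 7.84 and 8.0 TPM. At both times every DRF library lay above every NRF library, by a mean of 0.44 ± 0.16 and 0.45 ± 0.16 on the log2 scale, but neither difference passed the test at its own ZT (adjusted p = 0.0644 at ZT20 and 0.0827 at ZT24). After median-of-ratios rescaling both passed (adjusted p = 0.00749 and 0.0216), and at ZT20 the difference also passed without NRF ZT4 replicate 4 (0.0418) or without DRF ZT12 replicate 4 (0.0470). At ZT0 the NRF libraries had 6.95, 6.07, 7.71 and 5.74 TPM and the DRF libraries 8.10, 7.95, 9.87 and 7.18 TPM, which overlapped, and at ZT16 the NRF libraries (7.17, 7.61, 7.48 and 6.55 TPM) and DRF libraries (7.99, 7.63, 6.98 and 8.43 TPM) overlapped as well.

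The rhythm difference of Mcm7 was past the threshold under each of 22 alternatives, with adjusted p-values of 2.74e-06 (without both libraries that stood apart) to 0.00774 (without replicate number 2), and when each of the 56 libraries was left out in turn. For the other 9 genes the interaction had adjusted p-values of 0.213 (Mcm4) to 0.993 (Pcna). None of these 9 passed the rhythm test under DRF. For the other subunits called under NRF, the fitted DRF peak lay later by 1.17 ± 2.09 h (Mcm2), 2.15 ± 2.02 h (Mcm5), 2.55 ± 2.17 h (Mcm6) and 2.93 ± 2.18 h (Mcm3). Whether the shift of Mcm7 differed from the shifts of the other subunits was not tested.

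Mcm7 shares exonic bases with neighbours on the opposite strand, and the strand setting of the counting is not given in the sources used here, so reads of the shared bases cannot be told apart. It shares 321 exonic bases with Ap4m1, a subunit of a vesicle coat adaptor, and 64 with Cops6, a subunit of the COP9 signalosome. Ap4m1 (mean 2.72 TPM) had similar fitted peaks, with one at ZT9.07 ± 1.16 h under NRF (adjusted p = 0.0368), at ZT21.1 ± 1.03 h under DRF (adjusted p = 0.0211) and a different rhythm between the regimens (adjusted p = 0.000635). Its amplitude was 0.16 under NRF and 0.23 under DRF, against 0.32 and 0.18 for Mcm7, and the 2 genes were not tested against each other. Cops6 (mean 110 TPM) was not called rhythmic (adjusted p = 0.531 and 0.742). The part of the shared bases in the pattern of Mcm7 was not tested. Cdc45 shares 209 exonic bases with Ufd1, which was not called rhythmic (adjusted p = 0.103 under NRF and 0.499 under DRF). A processed copy of Pcna, Pcna-ps2, is listed with a mean of 0.536 TPM, and reads of Pcna may be split with it.

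At single ZTs, 0 of the 10 genes differed between the regimens. Of all genes tested, 0.267% differed at ZT4 and 0.159% at ZT8, the times with the fewest calls. The share was 9.47% at ZT20, 7.13% at ZT0 and 5.29% at ZT24, and it was 4.36% at ZT12 and 3.73% at ZT16. Of the 70 comparisons of a gene at a ZT, 17 had an unadjusted p under 0.05, of which 7 were at ZT8 and 5 at ZT4, all lower under DRF. Over all genes tested, 11.8% had such a p at ZT8 (9.44% lower under DRF), 10.6% at ZT4 (5.21% lower) and 17.7% over the 7 ZTs. With voom weights 1 gene was called (Mcm7 at ZT20). The largest difference was that of Top2a at ZT16, at -1.29 ± 0.49 (adjusted p = 0.127). Its libraries had 2.54, 1.60, 3.33 and 1.76 TPM under NRF and 1.13, 1.13, 0.785 and 0.507 TPM under DRF, and did not overlap. Between ZT24 and ZT0, 0 of the 10 genes differed in either regimen, against 0.263% of all genes under DRF and 0.0297% under NRF, with 0 unadjusted p-values under 0.05 and 0 calls with voom weights.

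Averaged over the day, all 10 genes had lower fitted means under DRF, and 5 of the 10 passed the test, against 17.3% of all genes in either direction and 15.9% in this direction. The 5 were Top2a, Mki67, Mcm3, Mcm2 and Mcm6. Top2a was 36.0% lower, at -0.64 ± 0.19 on the log2 scale (adjusted p = 0.0172), and Mki67 32.2% lower, at -0.56 ± 0.18 (adjusted p = 0.0276). The subunits fell by less, with Mcm3 at -0.27 ± 0.09 (adjusted p = 0.0219), Mcm2 at -0.24 ± 0.08 (adjusted p = 0.0344) and Mcm6 at -0.21 ± 0.07 (adjusted p = 0.0380). Mcm5 had nearly the same difference as Mcm2, -0.24 ± 0.11, but did not pass (adjusted p = 0.138). Neither Mcm4 (-0.12 ± 0.06), Pcna (-0.11 ± 0.04), Cdc45 (-0.04 ± 0.08) nor Mcm7 (-0.01 ± 0.06) passed.

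In the single libraries, Mki67 had 1.51, 2.50 and 12.1 TPM as the lowest, median and highest of the 28 NRF libraries and 0.608, 1.68 and 8.58 TPM of the 28 DRF libraries. Top2a had 1.17, 1.90 and 10.2 TPM under NRF and 0.471, 1.28 and 7.97 TPM under DRF. The regimens overlapped over most of their range, and the lowest values of both genes were found under DRF. Mcm3 had 4.06, 6.49 and 15.8 TPM under NRF and 3.63, 5.55 and 12.3 TPM under DRF.

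The scaling of the libraries bore on these differences. On the TPM scale the median difference of all genes was -0.05 and 91.9% of the genes called were lower under DRF, while after median-of-ratios rescaling the median was 0.01 and 57.3% were lower. Mitochondrial genes made up a mean of 21.7% of recovered reads under DRF and 20.4% under NRF. After the rescaling 1 of the 10 genes passed, Top2a at -0.59 ± 0.18 (adjusted p = 0.0350), against 5.00% of all genes in this direction. Mki67 was at -0.50 ± 0.17 (adjusted p = 0.0594) and Mcm3 at -0.21 ± 0.07 (adjusted p = 0.0586), and the uncalled differences of Mcm7 (0.05) and Cdc45 (0.02) changed sign. On the TPM scale the count was 2 without DRF ZT8 replicate 3 or DRF ZT12 replicate 3, and 3 without DRF ZT4 replicate 4, DRF ZT12 replicate 1, DRF ZT16 replicate 4, NRF ZT4 replicate 4, NRF ZT8 replicate 2, NRF ZT8 replicate 4, NRF ZT12 replicate 2 or NRF ZT16 replicate 3. Without both libraries that stood apart it was 6, with Pcna added. No gene passed when all libraries of ZT8 or of ZT16 were left out, and leaving out a replicate number could also remove every call.

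**Figure D3:**
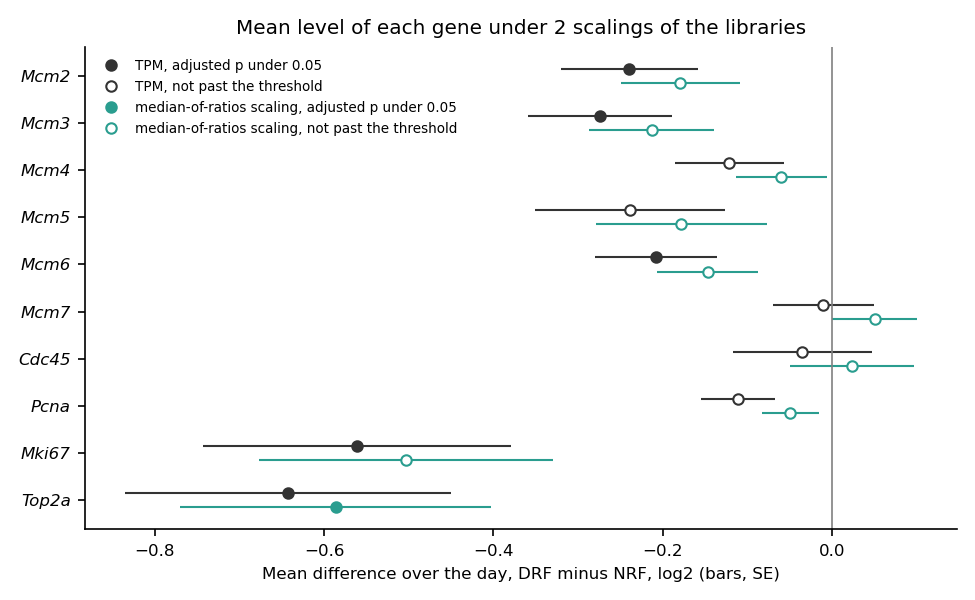
Mean difference over the day, DRF minus NRF (log2, horizontal axis), of each gene from TPM and after median-of-ratios rescaling, with bars for SE and filled points for an adjusted p under 0.05. Top2a passes on both scales (-0.64 and -0.59), and all points move to the right after the rescaling, which takes Mcm7 and Cdc45 across 0.

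Several markers of endothelial cells, macrophages, fibroblasts, pericytes and smooth muscle were lower under DRF as well. Of the endothelial markers 6 of 9 were lower under DRF, of the macrophage markers 6 of 9, of the fibroblast markers 5 of 8 and of the pericyte and smooth muscle markers 5 of 7, with none higher, against 15.9% of all genes tested. After median-of-ratios rescaling these counts were 2, 3, 3 and 3, against 5.00% of all genes tested. The summed endothelial level was 657 to 1143 TPM under NRF and 569 to 1012 TPM under DRF, that of pericytes and smooth muscle 680 to 1109 and 604 to 868 TPM, that of macrophages 364 to 799 and 379 to 758 TPM, and that of fibroblasts 2027 to 3677 and 1886 to 3347 TPM. Of the cardiomyocyte markers 1 of 8 was lower and 1 higher, and of the T cell markers 1 of 6 was lower. None of the tested markers of neutrophils (5), B cells (6), thymocytes (4 of 9 listed), erythroid cells (7), adipocytes (5) or mesothelium (5) passed. Of the thymocyte markers, Ptcra, Dntt, Rag1, Rag2 and Themis were not analysed here, and the other 4 summed to 0.876 to 3.15 TPM. The part of these cell types in the levels of the 10 genes was not tested.

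Between libraries of the same regimen and ZT, the 10 genes rose and fell together. After subtracting the mean of each group of 4, Pearson's r between 2 genes was 0.58 to 0.96 over the 45 pairs, with a median of 0.80 (Spearman's rho 0.52 to 0.93), and 0.51 to 0.95 without both libraries that stood apart. These are descriptions over 56 libraries, in which all genes of a library share its total and its cell mixture. In 3 of the 14 groups a single library was the highest in all 10 genes (NRF ZT4 replicate 4, DRF ZT12 replicate 4 and NRF ZT12 replicate 2), and in 3 a single library was the lowest in all 10 (DRF ZT12 replicate 3, DRF ZT8 replicate 3 and DRF ZT4 replicate 4). Mcm7 was part of this shared movement.

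The spread within groups was largest in the late genes. The SD within groups was 0.71 for Top2a and 0.68 for Mki67 on the log2 scale, 0.42 for Mcm5 and 0.16 for Pcna. The 14 groups took 25.1% (Cdc45) to 54.0% (Mcm3) of the sum of squares of each gene, with 38.3% for Mki67 and 41.8% for Top2a, against a median of 38.0% over all genes tested. At DRF ZT12, Mki67 had 2.49, 3.84, 0.721 and 8.58 TPM and Top2a 2.03, 3.47, 0.781 and 7.97 TPM, so libraries of 1 group covered a range of over 10-fold.

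**Figure D4:**
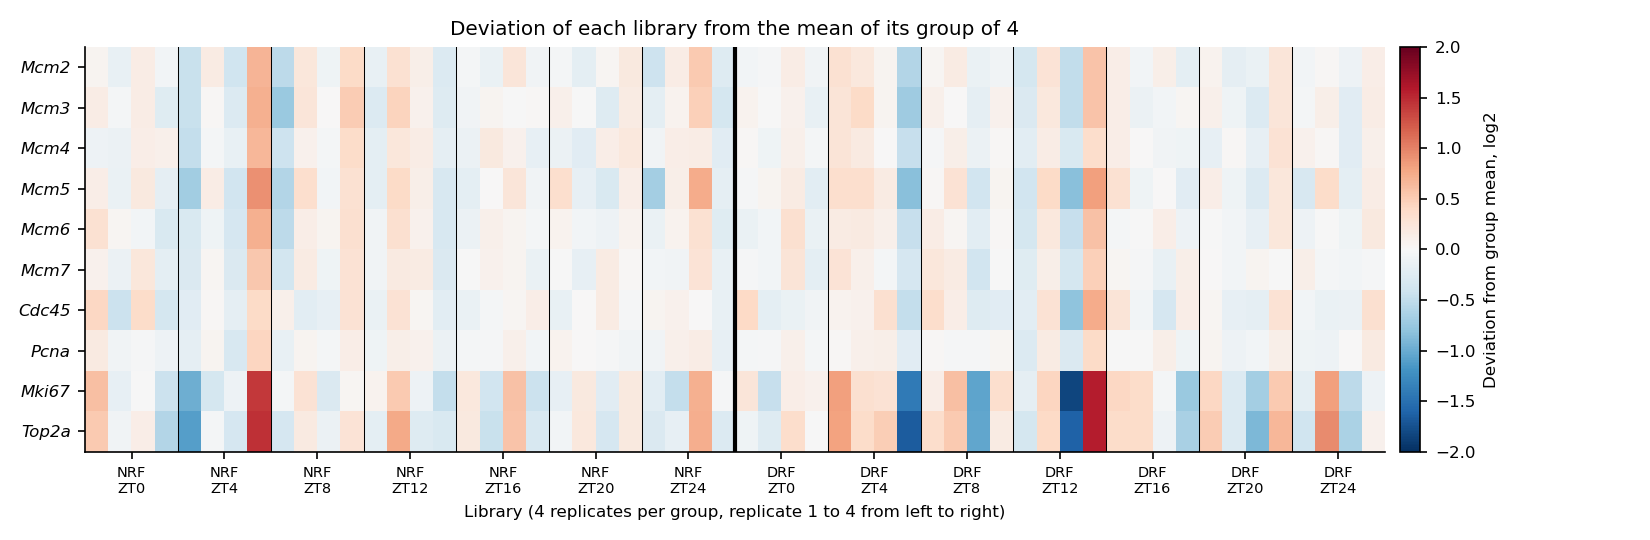
Deviation of each library from the mean of its group of 4 (log2, colour) for the 10 genes (rows) in 56 libraries (columns, by regimen and ZT). Whole columns take 1 colour, as in NRF ZT4 replicate 4 and DRF ZT12 replicate 4 (all 10 genes highest of their group) and DRF ZT12 replicate 3 (all 10 lowest), and the deviations are largest for Mki67 and Top2a.

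Endothelial and pericyte markers were high in 2 of the 3 libraries in which all 10 genes were highest. In NRF ZT4 replicate 4 the summed endothelial level was 1143 TPM, against 821 to 899 TPM in the other libraries of its group, the pericyte and smooth muscle level 1109 against 776 to 944 TPM and the macrophage level 698 against 534 to 647 TPM. In DRF ZT12 replicate 4 they were 765 against 569 to 714 TPM and 836 against 630 to 722 TPM, the macrophage level was 758 against 546 to 744 TPM, and the cardiomyocyte level was also the highest of its group, 33278 against 27841 to 30557 TPM. In NRF ZT12 replicate 2 the cardiomyocyte level was the highest of its group, 32132 against 29055 to 31376 TPM. The endothelial level was not (807 against 669 to 810 TPM). Neither were the pericyte and smooth muscle (882 against 750 to 886 TPM) and macrophage levels (694 against 654 to 704 TPM). The endothelial level was low in DRF ZT8 replicate 3 (603 against 683 to 741 TPM) and in DRF ZT4 replicate 4 (704 against 786 to 882 TPM), as were the 10 genes. The macrophage level was the lowest of its group in both, at 447 against 494 to 560 TPM and 390 against 466 to 683 TPM. So was the fibroblast level, at 2198 against 2322 to 2688 TPM and 2042 against 2211 to 3347 TPM. In NRF ZT4 replicate 4 and DRF ZT12 replicate 4 the fibroblast level lay within that of its group. The cardiomyocyte level of DRF ZT8 replicate 3 was the highest of its group, 32171 against 29637 to 31990 TPM. The pericyte and smooth muscle level of DRF ZT4 replicate 4 was also the lowest (709 against 750 to 844 TPM), while the pericyte and smooth muscle level of DRF ZT8 replicate 3 (699 TPM) lay within that of its group (672 to 740 TPM). In DRF ZT12 replicate 3, where the 10 genes were also lowest, the pericyte and smooth muscle level was the lowest (630 against 639 to 836 TPM), but the endothelial (584 against 569 to 765 TPM) and macrophage levels (591 against 546 to 758 TPM) were not. Over the 56 libraries the mean z-score of the 10 genes had a Pearson's r, after subtracting the mean of each group, of 0.74 with the endothelial sum, 0.65 with the macrophage sum, 0.59 with the pericyte and smooth muscle sum, 0.39 with the fibroblast sum and 0.19 with the cardiomyocyte sum, as descriptions. The part of the cell mixture in the shared movement was not tested.

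The genes whose levels followed the mean z-score of the 10 most closely over 56 libraries were Dnmt1 and Lmnb1 (r = 0.93 each), Racgap1, Cdk1 and Rrm1 (0.92 each), Cdt1, Anln and Iqgap3 (0.91 each) and Ncaph and Tcf19 (0.90 each). Dnmt1 copies DNA methylation after replication, Rrm1 is a subunit of ribonucleotide reductase, Cdt1 loads the helicase and Cdk1 is the mitotic kinase. They were chosen by their pattern over these libraries, so that their own calls are no independent support.

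The other genes of the pathway were counted in 5 lists. Of 21 tested genes of replication licensing and origin firing, 8 were rhythmic under NRF and 2 under DRF, and the rhythm of 6 differed between the regimens. These are 38.1%, 9.52% and 28.6% of the list, against 26.9%, 21.8% and 18.6% of all genes tested. Orc4, of the origin recognition complex, peaked at ZT21.3 under NRF with an amplitude of 0.17 ± 0.03 (adjusted p = 0.00150), away from the helicase subunits. Gins2, of the GINS complex, peaked at ZT7.75 with an amplitude of 0.47 ± 0.12 (adjusted p = 0.00834), Cdt1 at ZT8.08 with 0.38 ± 0.10 (adjusted p = 0.0149) and Mtbp, an origin firing factor, at ZT5.34 with 0.35 ± 0.07 (adjusted p = 0.00171). Gmnn, the inhibitor of Cdt1 and the most abundant gene of the list at 44.3 TPM, peaked at ZT12.8 under NRF and ZT5.40 under DRF (interaction adjusted p = 0.000489). Gins4 (24.6 TPM) was rhythmic only under DRF by the threshold, with a peak at ZT23.2, and its rhythm differed between regimens (adjusted p = 0.0166). Gins1 had fitted peaks at ZT10.4 and ZT2.23 (interaction adjusted p = 0.00867), and Mcm8, a relative of the helicase subunits that acts in repair, at ZT11.2 and ZT0.818 (interaction adjusted p = 0.0126), and neither passed the rhythm test under DRF (adjusted p = 0.0816 and 0.211).

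Of 37 genes of the replication fork, nucleotide supply and chromatin assembly, 16 passed the rhythm test under NRF and 3 under DRF, and 6 had a different rhythm, or 43.2%, 8.11% and 16.2% of the list against the same shares of all genes. Rpa2, of the complex that coats single-stranded DNA, moved from ZT9.70 to ZT4.48 (interaction adjusted p = 0.00149), and Top1 from ZT17.7 to ZT13.3 (adjusted p = 0.00236). The clamp loader subunit Rfc1 had fitted peaks at ZT8.49 and ZT21.6 (interaction adjusted p = 0.000561) and the polymerase subunit Pole at ZT9.91 and ZT21.0 (interaction adjusted p = 0.00595), and neither passed the rhythm test under DRF (adjusted p = 0.0729 and 0.382). The other named genes peaked in the light under NRF, with Rfc5 at ZT6.93 (amplitude 0.34 ± 0.06) and the primase partner Pola2 at ZT6.20 (0.28 ± 0.06). Tipin, a fork protection factor, was rhythmic in both regimens, with peaks at ZT6.58 and ZT5.70. The abundant Pold2 (26.0 TPM) was not called rhythmic in either (adjusted p = 0.464 and 0.583).

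Of 40 mitosis genes, 8 passed the rhythm test under NRF and 3 under DRF, and 1 had a different rhythm. These shares, 20%, 7.5% and 2.5%, lay below the 26.9%, 21.8% and 18.6% of all genes tested. The centromere proteins Cenpf and Cenpa and the phosphatase Cdc25b were rhythmic in both regimens. Cenpf peaked at ZT7.65 under NRF and ZT6.12 under DRF with amplitudes of 0.56 ± 0.09 and 0.53 ± 0.09, and Cdc25b at ZT9.75 and ZT9.18 with 0.50 ± 0.10 and 0.41 ± 0.12. Cenpa, the most abundant of the list at 13.1 TPM, peaked at ZT7.13 and ZT4.29 and was the gene whose rhythm differed (adjusted p = 0.00985). Ncapd2, a condensin subunit, was rhythmic under NRF, with a peak at ZT8.45 (adjusted p = 0.0243), and Smc4 (9.77 TPM) in neither regimen (adjusted p = 0.202 and 0.374).

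The peaks of the rhythmic genes were counted in the window from ZT4 to ZT12, which holds the fitted NRF peaks of the 10 genes. Some genes of these lists also followed the 10 genes across the same libraries, so these counts are no independent support. They were not repeated without the libraries that stood apart. Under NRF, between ZT4 and ZT12 lay the peaks of 6 of the 8 rhythmic licensing genes, 14 of the 16 fork genes and 8 of the 8 mitosis genes, against 43.6% of the 5431 rhythmic genes overall. Of the rhythmic genes of G1 cyclins, kinases and E2F factors 8 of 13 peaked there, and of the cell-cycle inhibitors and checkpoint kinases 3 of 7. Under DRF the counts were 1 of 2 licensing genes, 2 of 3 fork genes, 3 of 3 mitosis genes, 4 of 8 G1 genes and 1 of 5 inhibitor genes, against 51.6% of the 4408 rhythmic genes overall.

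In mean level, the mitosis list had the most genes past the test. Of 40 mitosis genes 26 were lower under DRF and none higher, with a median difference of -0.44 against -0.05 over all genes, and 39 of the 40 differences were negative. The 26 are 65% of the list, against 15.9% of all genes tested. The lowest adjusted p-values were those of the kinetochore motor Cenpe (-0.61 ± 0.16, adjusted p = 0.00552), cyclin A2 (Ccna2, -0.70 ± 0.19, adjusted p = 0.0108), the cytokinesis factor Ect2 (-0.51 ± 0.14, adjusted p = 0.0110) and Incenp, of the chromosomal passenger complex (-0.34 ± 0.10, adjusted p = 0.0121). After median-of-ratios rescaling 15 were lower (37.5%, against 5.00% of all genes) and 1 higher, and without both libraries that stood apart 32 were lower on the TPM scale (80%, against 17.1%).

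Fewer genes of the replication lists passed. Of 37 fork genes 8 were lower (21.6%, against 15.9% of all genes tested), with a median of -0.12, among them the fork protection factor Timeless (-0.23 ± 0.06, adjusted p = 0.00888), Rpa1 (-0.10 ± 0.03, adjusted p = 0.0161), the chromatin factor Uhrf1 (-0.48 ± 0.15, adjusted p = 0.0230) and the Pcna partner Pclaf (-0.53 ± 0.17, adjusted p = 0.0289). Of 21 licensing genes 4 were lower (19.0%), near the share of all genes, namely Cdc6, a loader of the helicase (-0.44 ± 0.12, adjusted p = 0.00887), Mcm10 (-0.35 ± 0.12, adjusted p = 0.0383), Gins2 (-0.31 ± 0.11, adjusted p = 0.0457) and Cdt1 (-0.30 ± 0.11, adjusted p = 0.0464), with the same median as all genes, -0.05. After median-of-ratios rescaling 2 fork genes (5.41%) were lower and 1 higher, and 1 licensing gene (4.76%) was lower, against 5.00% of all genes tested in this direction. The endothelial, macrophage, fibroblast and pericyte markers that passed the test, given above, were lower under DRF as well.

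**Figure D5:**
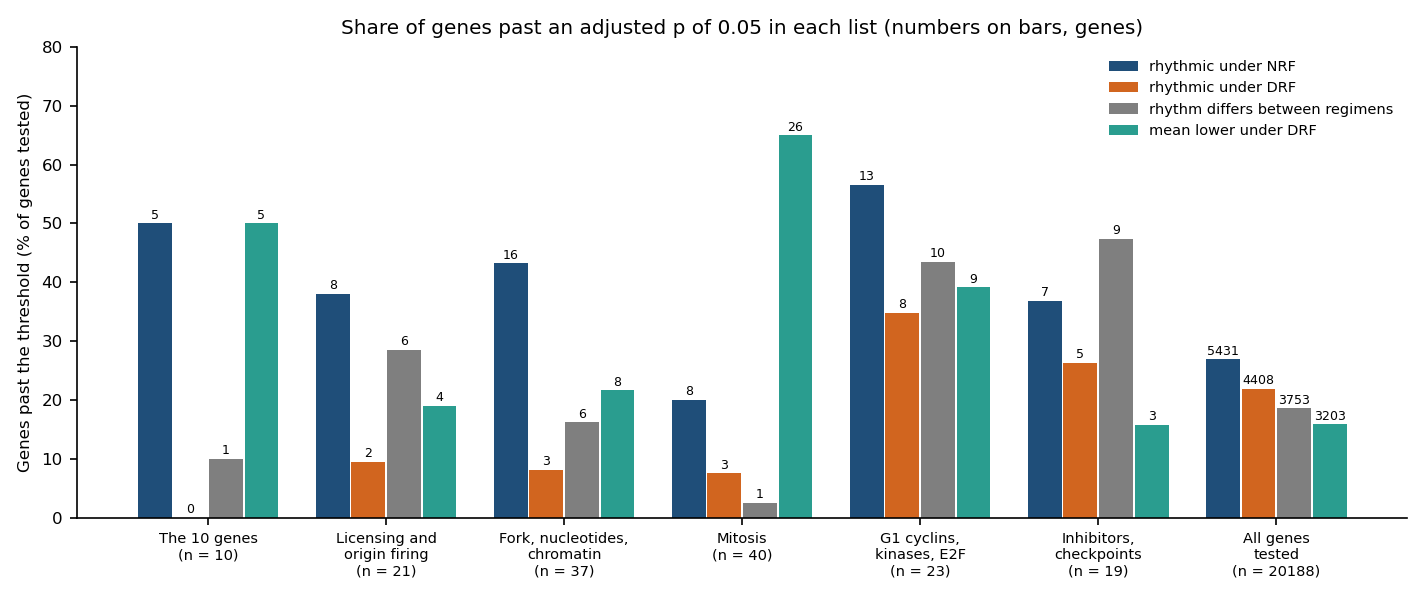
Share of tested genes past an adjusted p of 0.05 (percent, vertical axis) in each pathway list and in all genes, for rhythm under NRF, rhythm under DRF, a different rhythm and a lower mean level under DRF, with the number of genes on each bar. The NRF bars of the replication lists (8 of 21 and 16 of 37) stand above their DRF bars (2 and 3), and the tallest bar for a lower mean is that of mitosis (26 of 40).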

How the data were processed

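PolyA RNA libraries of mouse heart (56) were sequenced by the authors in paired reads, without molecular identifiers, and per the submitters' processing notes HISAT2 2.0.5, featureCounts 1.5.0-p3 and the mm10 build were used; the strand setting is not given in the sources used here. The deposited values, called TPM by the authors, were found to be another measure: log2 of 1 plus scaled reads, divided by exon length and scaled per library. Whole reads were recovered from them with GENCODE M21 exon lengths, with 99.9989% of values under 30000 reads falling within 0.1 of a whole read, and linear TPM was computed for 22849 of 22864 genes. The annotated length sufficed for 21973 genes, and 816 needed a searched length. The recovery and the fits were tested on simulated data.

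Genes whose mean reached 0.1 TPM (20188) were tested on log2(TPM + 0.1) with limma 3.58.1 in R 4.3.3 (moderated tests with a mean-variance trend, Benjamini-Hochberg adjustment over all genes, threshold 0.05). A harmonic of 24 h was fitted within each regimen by an F test, regimen by harmonic terms tested a different rhythm, and regimen effects and contrasts of 14 group means tested levels. MetaCycle, which the study used, was not used here. Errors of amplitude and peak are by the delta method. The members, pathway lists and marker lists were chosen with earlier results of these data known. Genes named from a list were the called genes with the lowest adjusted p (up to 4 per list and comparison) and the 2 most abundant, and the genes most alike were the 10 with the highest r. Samples were grouped by regimen and ZT from their titles. Replicate numbers were not treated as pairs. Deviations of libraries with the same number had a mean r of 0.00708, against -0.00236 for other numbers. Of the 56 libraries, 22 correlated best with one of their own number. Alternatives were other scalings, filters, pseudocounts, weights, thresholds and rhythm tests, and leaving out a ZT, a replicate number or a library. No 2 libraries held identical values.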

Additional observations from a re-analysis of the deposited data

Results flagged for a closer look

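Mcm7 had a different rhythm in the 2 regimens (limma interaction, adjusted p = 0.000100), with the values given above.

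Of 140 sets of 4 libraries (10 genes in 14 groups), 7 held a library that lay apart from the other 3 by Dixon's test, which is 5% of sets, and chance gives about 1 in 20. Cdc45 had 2.76 TPM in DRF ZT0 replicate 1, against 1.78 to 1.94 TPM in the others of its group, and 2.54 TPM in DRF ZT24 replicate 4, against 1.83 to 1.95 TPM. Mcm6 had 8.74 TPM in DRF ZT0 replicate 3, against 6.30 to 6.69 TPM, and 5.76 TPM in DRF ZT4 replicate 4, below the 8.56 to 9.01 TPM of the others. Pcna had 44.4 TPM in DRF ZT0 replicate 3, against at most 40.5 TPM in the others. Top2a had 3.75 TPM in NRF ZT12 replicate 2, against 1.73 to 1.90 TPM, and 3.26 TPM in NRF ZT24 replicate 3, against 1.57 to 1.71 TPM. Of these 7, 3 lay in DRF ZT0.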

How the results depend on the processing

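The count of members with a different rhythm was 1 (Mcm7) under every alternative for which it was computed, and no called value changed direction. The DRF rhythm count, 0 as reported, was 1 with median-of-ratios rescaling, TPM without mitochondrial genes, a mean of at least 1 TPM, the deposited values, voom weights, an F test of 7 ZT means, without ZT4 and without both libraries that stood apart, 2 without ZT12 and 3 without ZT8. The NRF count, 5 as reported, was 3 with the F test or with harmonics of 24 h and 12 h and 1 without ZT20. The count of different means, 5 as reported, was 1 with median-of-ratios rescaling, TPM without mitochondrial genes or untransformed TPM, 2 with the deposited values or without ZT0, 3 with voom weights or without ZT20, and 0 at a threshold of 0.01, without ZT8 or without ZT16. At ZT20, 1 member was called with median-of-ratios rescaling, TPM without mitochondrial genes, a mean of at least 1 TPM, the deposited values, voom weights and without both libraries, and at ZT24, 1 with median-of-ratios rescaling, TPM without mitochondrial genes, the deposited values and without both libraries. Leaving out a replicate number gave 0 to 6 rhythmic members under NRF, 0 to 1 under DRF, 0 to 6 different means and 0 to 1 calls at ZT4, ZT12 and ZT20. Leaving out a single library gave 4 to 6, 0 to 1 and 2 to 7, and 0 to 1 calls at ZT8 and ZT20. With a replicate block, which the labels do not call for (3.85% of same-number pairs had an r over 0.1, and 22 of 56 libraries correlated best with their own number), 5 members were rhythmic under NRF (Mcm4 in place of Mcm6), 0 under DRF, 1 differed in rhythm and 5 in mean. The cause of these changes was not tested. Fits without a library, and the pair left out, were chosen after seeing the data. Cdc45 had the fewest reads of the members, 75 in its lowest library.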

Other observations

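The genes that set entry into S phase included rhythmic genes in both regimens. Of 23 genes of G1 cyclins, kinases and E2F factors, 13 passed the rhythm test under NRF and 8 under DRF, and 10 had a different rhythm, while of 19 cell-cycle inhibitors and checkpoint kinases the counts were 7, 5 and 9. These are 56.5%, 34.8% and 43.5% of the first list and 36.8%, 26.3% and 47.4% of the second, against 26.9%, 21.8% and 18.6% of all genes tested. The kinase Wee1, which holds back mitotic entry and is a known target of the clock, had the largest amplitude of the named genes, 1.07 ± 0.07 under NRF with a peak at ZT15.3 and 0.53 ± 0.07 under DRF with a peak at ZT12.9 (interaction adjusted p = 7.64e-06). The Cdk inhibitor Cdkn1a peaked at ZT0.410 under NRF with 0.54 ± 0.06 and at ZT21.7 under DRF with 0.88 ± 0.09 (interaction adjusted p = 0.000710). Cdkn1b had fitted peaks at ZT10.8 and ZT20.8 (interaction adjusted p = 1.97e-05) but did not pass the rhythm test under NRF (adjusted p = 0.0605), and Cdkn1c had fitted peaks at ZT14.5 and ZT7.72 (interaction adjusted p = 0.000516) but did not pass under DRF (adjusted p = 0.185). The tumour suppressor Trp53 peaked at ZT5.02 under NRF and ZT6.02 under DRF, where it did not pass the rhythm test (adjusted p = 0.0552), and Gadd45a at ZT8.42 and ZT3.79.

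The retinoblastoma relative Rbl2, a repressor of cell-cycle genes in resting cells, moved by 11 h, from ZT11.6 to ZT22.6 (interaction adjusted p = 6.26e-09), and E2f6, another repressor, had fitted peaks at ZT20.5 and ZT7.91 (interaction adjusted p = 2.64e-06) but did not pass the rhythm test under DRF (adjusted p = 0.0681). Tfdp2, a partner of E2F factors, peaked at ZT13.9 under NRF and ZT17.8 under DRF and was the 1 gene of the G1 list that passed the test with a higher mean under DRF (0.26 ± 0.05, adjusted p = 0.000111), on the TPM scale. Cyclin E1 (Ccne1) had an amplitude of 0.63 ± 0.12 under NRF with a peak at ZT9.00 (adjusted p = 0.000850) and 0.16 ± 0.14 under DRF (adjusted p = 0.701). The D cyclins had lower means under DRF, with Ccnd1 at -0.45 ± 0.08, Ccnd2 at -0.28 ± 0.04 and Ccnd3 at -0.21 ± 0.04 (adjusted p = 0.000122, 1.73e-06 and 0.000845). Of the G1 list 9 genes (39.1%, against 15.9% of all genes tested) were lower and 1 higher, or 4 (17.4%, against 5.00% of all genes) and 1 after median-of-ratios rescaling. Of the inhibitor list 3 were lower (15.8%), namely Trp53 (-0.26 ± 0.06), Chek2 (-0.24 ± 0.06) and Btg2 (-0.19 ± 0.06), or 2 lower (10.5%, against the same 5.00%) and 1 higher after the rescaling. The most abundant gene of the inhibitor list, Ccng1 (481 TPM), peaked at ZT20.9 under NRF with an amplitude of 0.12 ± 0.02.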
